A study of Mus musculus with 7 samples.

Results

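A group of 13 noncoding RNA loci lay in the intergenic stretch between *Inhba* and *Sugct* on mouse chromosome 13, within a list of 1489 loci that the study put forward as dependent on the cardiac T-box factor TBX5 in the adult left atrium. Its members were chosen by the neighbour column of the deposited list, as every row that names *Inhba* or *Sugct*. They made up 0.873% of the list and 10.2% of its 128 loci on chromosome 13. All 13 rows named both genes. The list itself had been selected by the authors on the *Tbx5* knockout against control contrast, so membership in it is not a finding here. The study reported more *Tbx5*-dependent ncRNAs, in both directions of change, than this list holds. A place without a listed locus may therefore hold another of them.

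RNA came from the left atrium of male mice of a mixed strain, 6 to 8 weeks old, in 4 *Tbx5* knockout and 3 control libraries. The knockouts, TBX5 -/- in the labels, carried floxed *Tbx5* and the R26CreERt2 driver, a tamoxifen-inducible Cre active in all tissues, so the gene was lost in every cell type that the drug reached and not in cardiomyocytes alone. The controls carried R26CreERt2 without floxed *Tbx5*, and both genotypes were collected a week after tamoxifen. RNA was depleted of ribosomal and polyadenylated species and sequenced with its strand, and transcripts were assembled de novo, so a locus is an assembled stretch of genome and not an annotated gene. The list gives positions, neighbours and marks but no level per library. The depth, the spread between mice and the targeted gene in each library were therefore not analysed here, and neither were markers of the tissue. In whole tissue, fewer cells that make an RNA and less of that RNA per cell cannot be told apart. No direction of change was assigned to the loci, since the row count, the sheet name and a column heading of the list do not point the same way.

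*Inhba* encodes the beta A subunit of inhibins and activins, and a pair of these subunits forms activin A, a secreted ligand of the TGF-beta family. Activin binds type II receptors, which recruit the type I receptor encoded by *Acvr1b*, and the signal passes through SMAD proteins to the nucleus. *Sugct* encodes a mitochondrial transferase that attaches coenzyme A to glutarate, an intermediate of lysine and tryptophan breakdown, and in humans its loss leads to glutaric aciduria type III. RNAs made from enhancers are as a rule short, unspliced and poorly polyadenylated, and are often made from both strands.

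*Inhba* (ENSMUSG00000041324.14) runs from 16011851 to 16031621 on the plus strand of chromosome 13 in mm10, and *Sugct* (ENSMUSG00000055137.7) from 16857472 to 17695553 on the minus strand, so the 2 coding genes point towards each other. The loci lay past the 3′ end of both, antisense to *Inhba* and in the sense of *Sugct*. Their run began 154 kb past the end of *Inhba* and 174 kb from its start site. From *Sugct* it was 646 kb to the 3′ end and 1484 kb to the start. The study kept only ncRNAs away from known start sites of coding genes, so the start sites themselves could hold no listed locus. The proximal promoters of the 2 genes are shown, with TBX5 as the deleted factor in mind. They lie at the far ends of the gene bodies, outside the stretch that holds the loci. Each is the 250 bases before the RefSeq start on GRCm38.p6, 5′ to 3′ on the strand of the gene, at chr13:16011601-16011850 (plus) and chr13:17694766-17695015 (minus). Capitals mark the letters AGGTG, the core of T-box sites.
Inhba: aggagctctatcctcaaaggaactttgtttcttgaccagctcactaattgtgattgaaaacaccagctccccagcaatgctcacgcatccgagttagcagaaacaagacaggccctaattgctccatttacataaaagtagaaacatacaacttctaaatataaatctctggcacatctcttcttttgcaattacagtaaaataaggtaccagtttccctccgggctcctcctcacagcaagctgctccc
Sugct: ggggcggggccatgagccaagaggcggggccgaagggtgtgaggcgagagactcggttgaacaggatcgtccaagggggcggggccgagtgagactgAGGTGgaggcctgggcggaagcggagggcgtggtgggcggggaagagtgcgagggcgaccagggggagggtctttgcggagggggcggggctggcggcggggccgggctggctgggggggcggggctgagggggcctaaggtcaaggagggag
The *Inhba* window held 43.2% G and C with 3 CG dinucleotides and no AGGTG on either strand. The *Sugct* window held 74% G and C with 20 CG dinucleotides and 1 AGGTG, which began 153 bases before the start. GENCODE also holds a *Sugct* transcript that starts upstream of this window. Over 32851 promoter windows of this length the median was 52.4% G and C, with quartiles of 45.2 and 61.2%, and 6 CG dinucleotides. AGGTG was present in 46.0% of them on either strand. The longer cores AGGTGT and AGGTGTGA, present in 11.8% and 1.12% of windows, were in neither promoter, and nor was the GATA motif AGATAA, present in 9.99%. Only these exact letters were searched. The *Sugct* window also holds GGGTGTGA, which differs from AGGTGTGA in its first letter alone, and such variants were not counted. A match of this length describes letters and not a bound site. The sequences of the 13 loci themselves were not analysed here.

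The 13 loci formed a single run of 25.9 kb when neighbours on the same strand at most 10 kb apart were joined. The run took up 3.14% of the 826 kb between *Inhba* and *Sugct*, from 18.6 to 21.8% of the way along from *Inhba*, and no listed locus lay in the rest of that gap. The gap was among the longest between neighbouring coding genes, with 359 of 18883 gaps longer, or 1.90%. Listed loci lay in 748 gaps, which had a median length of 77.3 kb and a median of 1 locus. Of these, 64 were longer than the *Inhba* to *Sugct* gap and 6 held more loci. Listed loci lay in 17.8% of the gaps longer than that between *Inhba* and *Sugct*, and in 3.96% of all gaps.

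**Figure D1:**
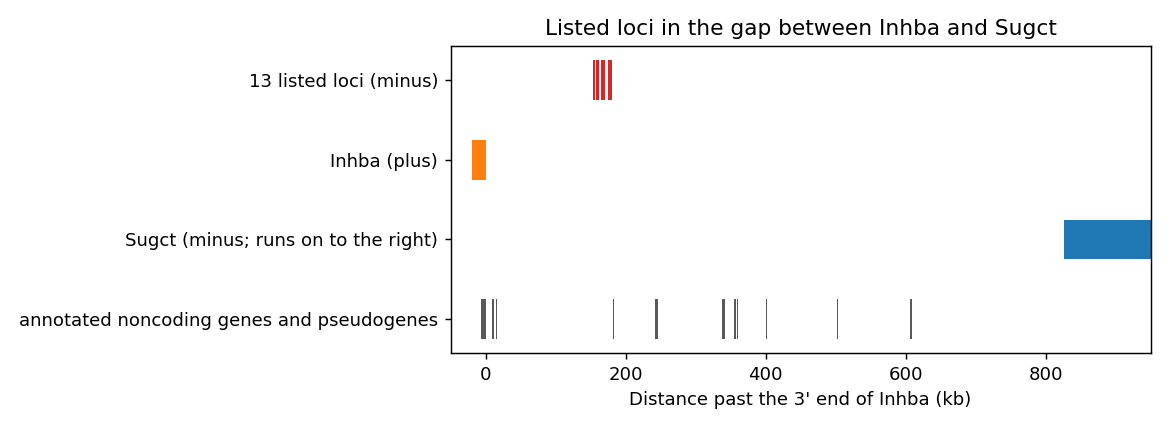
Positions of the 13 listed loci, *Inhba*, *Sugct* and the annotated noncoding genes and pseudogenes of the gap, as distance past the 3′ end of *Inhba* in kb, with features under 2 kb drawn 2 kb wide. The loci start between 154 and 179 kb in 1 block, and *Sugct* begins at 826 kb.

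None of the 13 carried an annotation in the list, against 202 of all 1489 listed loci (13.6%). Of the 11 runs of at least 10 loci, 7 had no annotated locus, this run among them. None of the 13 overlapped a GENCODE gene, an overlap that was not counted for the other listed loci. GENCODE places 10 noncoding genes and pseudogenes after the end of *Inhba* in this gap. The closest to the run was *Gm31711*, a processed pseudogene of 196 bp on the same strand, from 16213569 to 16213764. It lay upstream of the loci, 2.22 kb from their 5′ edge. Farther upstream came *Gm48491*, a long intergenic noncoding gene on the same strand, at 61.8 kb, and *Gm48492*, of the same type and strand, at 158 kb. The pseudogenes *Gm48493*, *Gm48494*, *Gm48496*, *Gm48497* and *Gm7537* lay beyond these, at 175 to 427 kb. On the side of *Inhba*, the closest were the pseudogene *Gm6562* at 139 kb and the small nuclear RNA gene *Gm22628* at 144 kb. *Gm48444*, annotated as antisense to *Inhba* and overlapping its 3′ end, was 153 kb away. The run thus had a pseudogene as its closest annotated feature, followed by *Gm48491*, a noncoding gene.

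The run stood far from other listed loci. The nearest was XLOC_013368, a plus-strand locus of 204 bp at 1967 kb on the *Inhba* side, and beyond *Sugct* it was XLOC_014811, a minus-strand locus of 51 bp at 2187 kb. Over all 984 runs and single loci of the list, the median distance to the nearest other listed locus was 418 kb, and 130 of them (13.2%) were farther from any other than the *Inhba* and *Sugct* run was.

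Transcription on the minus strand proceeds towards *Inhba*, so the 5′ end of the run is its side nearest *Sugct*. Read in that direction, the loci fell into 3 sub-groups separated by the 2 gaps over 5 kb. The sub-group at the 5′ end held 7 loci in 5246 bp, of which they covered 32.0%, with a median gap of 574 bp. It opened with XLOC_014800 (chr13:16210747-16211349), at 603 bp the longest of the 13, with a conservation score of 0.0415. That score is the mean phastCons value of the bases of a locus, from 0 for no conservation to 1. XLOC_014798 (chr13:16209430-16209632) followed after 1114 bp, with 203 bp and a score of 0.0101. XLOC_014797 (chr13:16209136-16209297) came 132 bp later, with 162 bp and the lowest score of the run, 0.000802. XLOC_014796 (chr13:16208797-16208978), another 157 bp on, had 182 bp and a score of 0.0701. All 4 of these scores were below the median of the list, 0.0759. The next 3 had no score at all. XLOC_014793 (chr13:16207654-16207781) measured 128 bp, XLOC_014792 (chr13:16207054-16207348) measured 295 bp, and XLOC_014790 (chr13:16206104-16206210) measured 107 bp. They were neighbours and filled a stretch of 1678 bp.

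A gap of 6386 bp, the widest of the run, led to the middle sub-group of 3 loci in 2862 bp. Its median score, 0.130, was the highest of the 3 sub-groups, against 0.0258 at the 5′ end and 0.0617 at the 3′ end. XLOC_014785 (chr13:16199550-16199717) had 168 bp and a score of 0.130, and XLOC_014784 (chr13:16198740-16198846) had 107 bp and 0.0886. XLOC_014783 (chr13:16196856-16197094) had 239 bp and 0.184, the highest of the 13. Each of the 3 was above every score of the 5′ sub-group, whose 4 scored loci ranged between 0.000802 and 0.0701.

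The sub-group at the 3′ end, nearest *Inhba*, began after a gap of 5721 bp and was the sparsest, with 10.4% of its 5687 bp covered. XLOC_014779 (chr13:16190936-16191134) had 199 bp and a score of 0.0127. XLOC_014777 (chr13:16189180-16189424) had 245 bp and 0.0617, and XLOC_014776 (chr13:16185448-16185597), the last, had 150 bp and 0.148. Scores here spanned most of the range of the run, so they did not separate from either of the other sub-groups. Sub-groups were drawn after their positions were known, and with 3 to 7 loci of 1 run their scores carry no test.

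**Figure D2:**
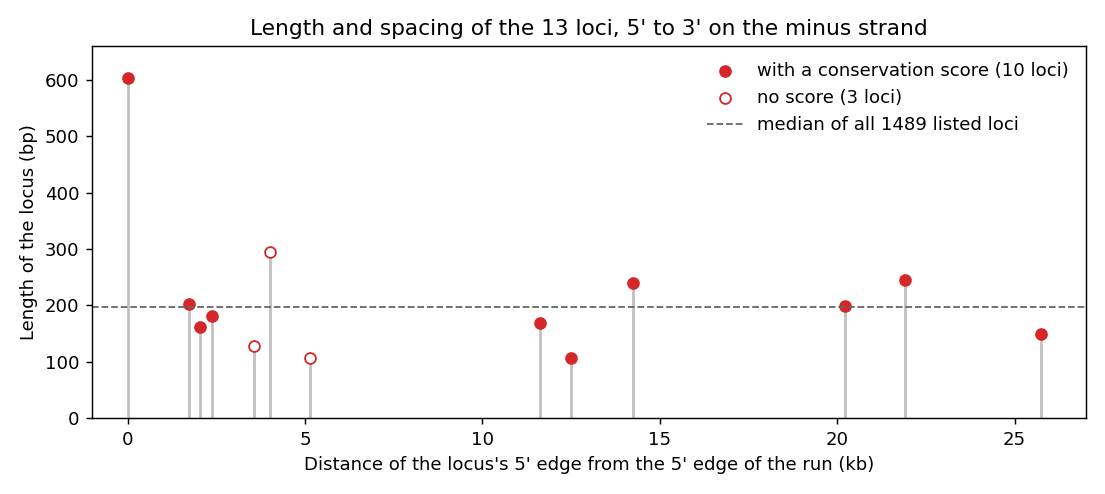
Length in bp of each of the 13 loci against the distance in kb of its 5′ edge from the 5′ edge of the run, with open points for the 3 loci without a score and a dashed line at 197 bp, the median of all listed loci. The 603 bp locus stands first, and 7 loci sit within the first 5.14 kb.

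The loci were short and alike in length. Their median was 182 bp (95% order-statistic interval, 128 to 245 bp), their mean 214 ± 129 bp (SD, n = 13 loci), and 12 of them lay between 107 and 295 bp. All listed loci had a median of 197 bp (185 to 207 bp), so the medians did not differ beyond their intervals. The upper ends did differ in value: the upper quartile was 239 bp over the 13 loci and 1053 bp over all listed loci. No member exceeded 700 bp, against 412 of the whole list, and 28.6% of listed loci were longer than the longest member. XLOC_014800 alone made up 21.6% of the 2788 bp that the members covered. Neighbouring loci of 1 run were not taken as independent replicates, so their lengths were not tested.

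Conservation was low. The 10 loci with a score had a median of 0.0659 (0.0101 to 0.148), and the 1264 scored loci of the list had 0.0759 (0.0689 to 0.0830), inside the interval of the members. Of the scored loci of the list, 19.3% were above the highest member score of 0.184 and 2.77% were below the lowest of 0.000802. A score was missing at 3 of 13 loci (23.1%, 95% Wilson interval 8.18 to 50.3%), against 225 of the whole list (15.1%, 13.4 to 17%), and the intervals overlapped. Those 3 loci were neighbours, so they are not 3 independent readings, and the interval takes no account of that. The positions of all 13 had moved to mm9, the build of the score, by 1 and the same offset of 91833 bp with no change of length.

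**Figure D3:**
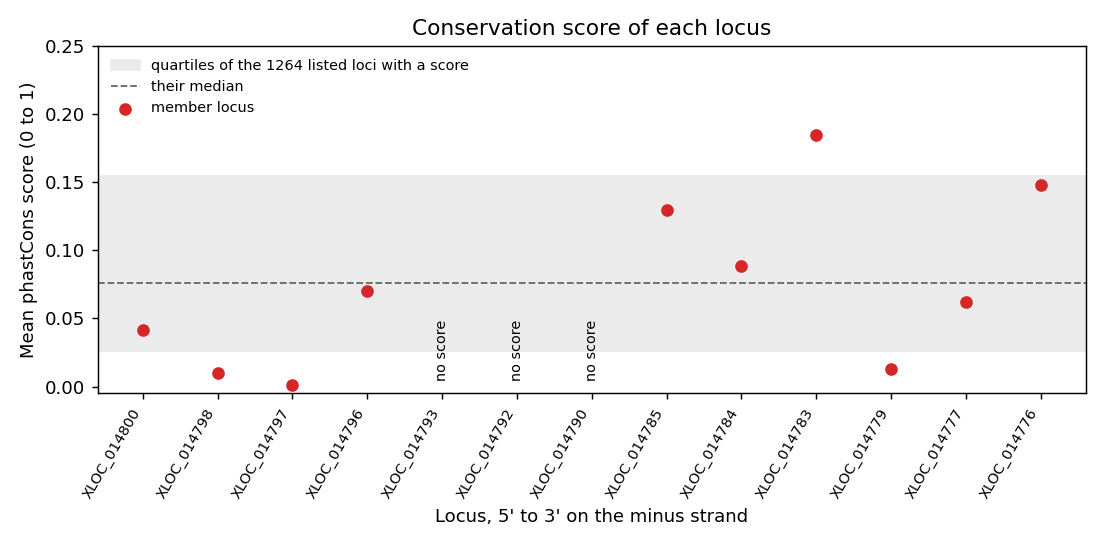
Mean phastCons score of each of the 13 loci, in order from the 5′ to the 3′ edge of the run, over a band for the quartiles and a dashed line for the median of the 1264 scored loci of the list. Scores of the 4 scored loci at the 5′ end lie between 0.000802 and 0.0701, and the middle 3 lie between 0.0886 and 0.184.

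The spacing of the loci was uneven. The 12 gaps had a median of 1064.5 bp and ranged between 132 and 6386 bp. Of these gaps 5 were at most 1 kb and 2 were over 5 kb, and those 2 added up to 12107 bp of a span of 25902 bp. Loci covered 10.8% of the span. Identifiers of the assembly rose in number with position in all 44 combinations of chromosome and strand in the list, so a missing number between neighbouring loci belongs to an assembled locus that is not in the list used here. Of the 25 numbers of the run, 13 were listed (52.0%) and 12 were not. The 2 widest gaps held 7 of the 12, with 4 in the gap of 6386 bp and 3 in that of 5721 bp. Another 6 gaps held none, the widest of them 3582 bp, between XLOC_014777 and XLOC_014776. The listed run was thus a selection from a longer row of minus-strand assemblies, and the unlisted ones were not analysed here.

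Loci crowded at the 5′ end. Of the 13, 7 (53.8%) began within the first 20% of the span, which ended at 5.18 kb. The last inside it, XLOC_014790, began at 5.14 kb and the first outside, XLOC_014785, at 11.6 kb. In the other 10 runs of the list with at least 10 loci, this share ranged between 6.98 and 26.9% with a median of 17.1%. Gap size and order from the 5′ end had a Spearman rho of 0.64 over the 12 gaps of the run, and between -0.57 and 0.80 in the other 10, so wider gaps towards the 3′ end were found in other runs too. These are descriptions of positions, without a test, and the written plan named no share by position within a run.

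**Figure D4:**
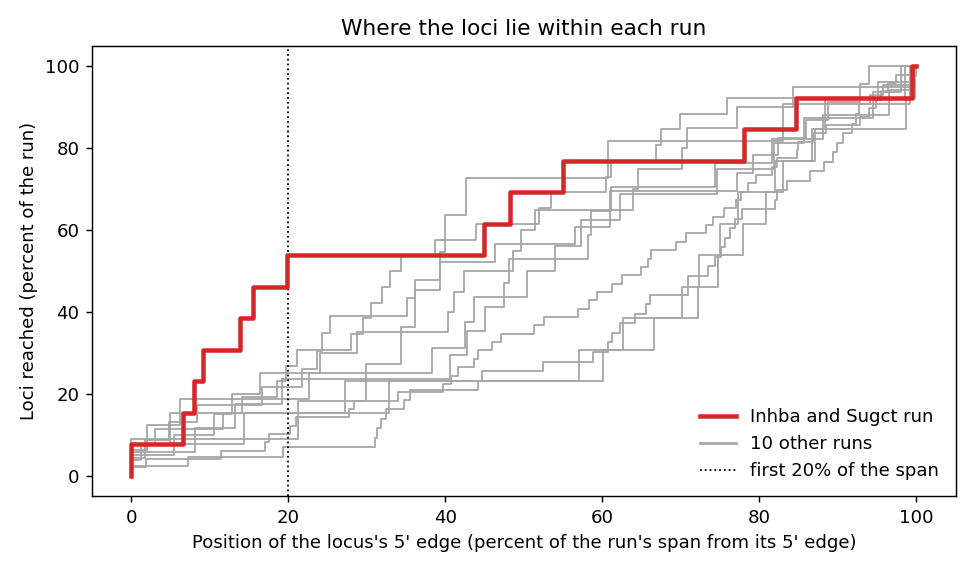
Cumulative share of the loci of a run, in percent, against the position of their 5′ edge in percent of the span, for the *Inhba* and *Sugct* run (red) and the 10 other runs of at least 10 loci (grey). The *Inhba* and *Sugct* run reaches 53.8% within the first 20% of its span, and the others reach at most 26.9%.

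Set beside those 10 other runs, the *Inhba* and *Sugct* run had the shortest span, 25.9 kb against 26.3 to 272 kb, and the lowest median length, 182 bp against 190 to 7742 bp. The next run was close on both measures. The 20-locus run beside *Bcl2l11*, the gene of the cell death protein BIM, had a median of 190 bp, and the 13-locus run between *Acyp2* and *Psme4*, which encodes a proteasome activator, spanned 26.3 kb. The longest locus was 603 bp in the *Inhba* and *Sugct* run and 2277 bp beside *Bcl2l11*, and in 9 of the 10 other runs it was above 603 bp. The share of span covered was 10.8% in the *Inhba* and *Sugct* run and 10.1 to 91.5% in the others.

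**Figure D5:**
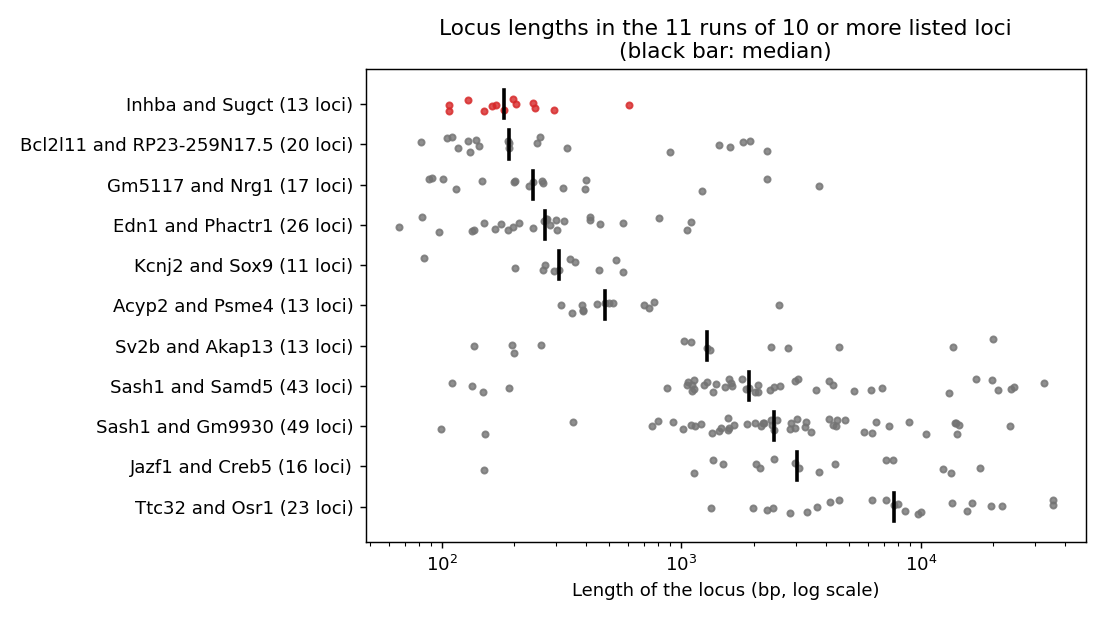
Length in bp (log scale) of every locus in the 11 runs of at least 10 loci, a point per locus and a black bar at the median of the run, with the *Inhba* and *Sugct* run in red at the top. Its loci lie between 107 and 603 bp, and 9 of the other 10 runs reach beyond 603 bp.

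The 11-locus run between *Kcnj2*, which encodes an inward rectifier potassium channel, and *Sox9*, a gene for a transcription factor, was near it in the share of span covered and in the longest locus, but not in median length or spacing. The *Inhba* and *Sugct* loci covered 10.8% of their span with a longest locus of 603 bp, and the *Kcnj2* and *Sox9* loci 10.1% with a longest of 570 bp. Both runs opened with their longest locus, as 4 of the 11 did, and both were remote, at 1967 kb and 5276 kb from the next listed locus. They differed in the linked gene column, which was empty at all 13 *Inhba* and *Sugct* loci and filled at all 11 between *Kcnj2* and *Sox9*. Median lengths were 182 bp in the *Inhba* and *Sugct* run and 307 bp between *Kcnj2* and *Sox9*. The median gap was 1064.5 bp in the *Inhba* and *Sugct* run and 2011 bp in the *Kcnj2* and *Sox9* run. The 17-locus run at *Nrg1*, which encodes the growth factor neuregulin 1, also opened with its longest locus, of 3746 bp, as did the *Acyp2* and *Psme4* run, with 2560 bp. A score was missing at 3 of the 13 *Inhba* and *Sugct* loci, at 3 of the 13 between *Acyp2* and *Psme4* and at 4 of the 17 at *Nrg1*. Of identifier numbers, 52.0% were listed in the *Inhba* and *Sugct* run and 33.9 to 74.3% in the other 10, the highest in the 26-locus run between *Edn1*, which encodes endothelin-1, and *Phactr1* on the same chromosome. The share was lower than 52.0% in 2 of those 10.

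Marks of the list other than position were uniform over the run. None of the 13 loci was marked as transcribed from both strands (0%, 95% Wilson interval 0 to 22.8%), against 348 of all listed loci (23.4%, 21.3 to 25.6%). The mark tended to be shared within a run, since among the 11 runs of at least 10 loci it was present at every locus of 3 and at no locus of 8, so the 13 loci are not 13 independent readings of it. The minus strand carried every member, and it held 68 of the 128 listed loci of chromosome 13.

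The column of linked *Tbx5*-dependent coding genes was empty at all 13 loci (0 linked, 0%, interval 0 to 22.8%), against 384 of all listed loci (25.8%, 23.6 to 28.1%). Neither *Inhba* nor *Sugct* was among the 286 linked genes anywhere in the list. The same column was empty in 9 of the 11 runs of at least 10 loci and filled at every locus of the other 2. Entries thus tended to be shared within a run, so the 13 loci are not 13 independent readings of it. By position, 13 coding genes lay within 2 Mb of the run and 1 of them, *Arid4b*, was linked to a locus elsewhere. The others were not compared with the study's full set of *Tbx5*-dependent coding genes, which is larger than the 286 linked here. *Arid4b* encodes a chromatin-binding subunit of SIN3 histone deacetylase complexes, and lay 1986 kb away, within 2 Mb of 6 of the 13 loci, those on the *Inhba* side. *Arid4b* was not entered at any of the 6, but the heading of the column refers to nearest genes. None of the 13 loci names *Arid4b* as a neighbour, so its absence from the column there carries no information. The study describes a narrowing of its ncRNAs to those within 2 Mb of a *Tbx5*-dependent coding gene that changed in the same direction. How that step applied to loci with an empty entry is not known, so an empty entry does not show that no such gene lay near. The next linked genes were *Vps41*, which encodes a vesicle tethering factor, at 2506 kb, and *Ryr2*, which encodes the cardiac calcium release channel, at 4079 kb.

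Among the ligands of the activin pathway, *Inhba* was the 1 of 8 with a listed locus as neighbour. *Inha*, *Inhbb*, *Inhbc* and *Inhbe*, which encode the other inhibin and activin subunits, and *Mstn*, *Gdf11* and *Nodal*, for related ligands, had none. The closest listed locus to those 7 was at 685 kb, from *Inhbc*, and for *Mstn* it was at 2026 kb. Of 5 receptor genes, *Acvr1b* was a neighbour. A 130 bp locus, XLOC_019198, lay 90.2 kb past its 3′ end in sense.

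Of the transducers, *Smad2* and *Smad3*, which encode the SMADs that carry the activin signal, were neighbours, and *Smad4* and *Foxh1* were not. XLOC_026105, of 51 bp, lay 77.4 kb past *Smad2*. XLOC_058519, of 1522 bp, lay 182 kb upstream of *Smad3* and 11.1 kb past the 3′ end of *Smad6*, which encodes an inhibitory SMAD, in the sense of both. It was linked to *Smad3*, the only link within the pathway list. Among the inhibitors and co-receptors, *Bambi*, for a pseudoreceptor, had the 83 bp XLOC_025273 at 60.8 kb upstream and *Tgfbr3*, for betaglycan, had the 54 bp XLOC_042415 at 102 kb upstream. *Fst*, for the activin-binding protein follistatin, had its closest listed locus 2569 kb away. The run beside *Inhba* held 13 loci, whereas each of these other neighbours had 1.

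In all, 7 of 24 activin genes (29.2%) were neighbours of a listed locus, and 8 (33.3%) lay within 500 kb of one, against 17% and 36.4% of 21755 coding genes. The gene list, with *Inhba* in it, was chosen with these loci known. Its count is thus no evidence for the pathway, with or without *Inhba*. *Smad3* and *Smad6* also shared XLOC_058519 as their closest listed locus. Of 10 genes of glutarate and lysine breakdown, 2 were neighbours (20%), *Sugct* itself and *Aldh7a1*. *Aldh7a1* encodes a dehydrogenase of lysine breakdown and had the 114 bp XLOC_025954 at 0.339 kb past its 3′ end in antisense. *Gcdh*, for the glutaryl-CoA dehydrogenase that acts on the product of SUGCT, was 702 kb from its closest listed locus.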

How the data were processed

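Per the labels and the methods of the study, the authors aligned directional 50-bp single-end reads to mm10 with TopHat2 (2.0.10 and 2.0.13 in the submitters' processing notes), assembled transcripts with Cufflinks, counted reads with featureCounts and tested genotypes with DESeq. The deposited list gives mm10 and mm9 positions and a mean phastCons score per locus, which the authors took on mm9. Its 2 tables were identical and were used once. Of its rows, 1 was emptied and 1489 were used. Counts, fold changes and p-values per locus were not analysed here.

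Loci were compared by position with GENCODE M21. Same-strand loci at most 10 kb apart, edge to edge, formed a run, and a 5 kb limit gave sub-groups. Intervals are 95% Wilson for shares and 95% order-statistic for medians, for counting error only. Every locus, both neighbour genes, annotated genes of the gap and list genes beside a listed locus were named by rule. Members and lists were chosen with earlier results of these data known. Promoters came from RefSeq (GRCm38.p6). Python 3.11.15, pandas 2.3.3 and SciPy 1.17.1 were used, and the steps were tested on simulated data. Alternatives were other run limits, gene edges, weights and subsets of loci.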

Additional observations from a re-analysis of the deposited data

How the results depend on the processing

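Of 19 alternatives over 9 results, 15 left the value within its spread or, for a count, within 1.5 times. Whether the loci form 1 run rests on the 10 kb limit: at 5 kb there were 3 runs and at 1 kb there were 8. The median distance of the loci from *Inhba* was 174 kb from the gene body and 194 kb from the start site, which differ by the length of the gene. Loci with a linked gene were 0 as entered in the list and 6 by position within 2 Mb, all through *Arid4b*. The count by position used only coding genes linked somewhere in the list. The share of loci in the first 20% of the run was 53.8%, and 50% without XLOC_014790, the locus nearest its limit, a setting chosen after seeing the data. Distances from the RefSeq gene body, the median length of scored loci only and the first 25% of the run were also added after seeing the data.

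No paired analysis was possible because the list carries no value per library. For the same reason the planned fit of knockout against control and its leave-one-out repeats were not run. Planned values of repeat content, GC content and motifs inside the loci were not run, since they need the genome sequence. The depth behind each locus is unknown.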
